A study of Mus musculus with 2 samples.

Results

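The 28 genes described here encode enzymes of cholesterol and fatty acid synthesis, with 3 regulators and 1 sterol transfer protein. They were taken by symbol from a fixed list of names, were all found once among the 31055 features of both matrices. The choice rule uses no measured value, but the list was drawn up with earlier results of these data known. Of the 28, 17 form the sterol branch, 7 the fatty acid branch and 4 the group of regulators and transport. The sterol branch splits into 6 genes of the mevalonate part (Hmgcs1, Mvk, Pmvk, Mvd, Idi1 and Fdps) and 11 genes from squalene to cholesterol (Fdft1, Sqle, Lss, Cyp51, Tm7sf2, Msmo1, Nsdhl, Hsd17b7, Ebp, Sc5d and Dhcr7). The fatty acid branch holds Acly, Acss2, Acaca, Fasn, Elovl6, Scd1 and Scd2, and the remaining genes are Insig1, Srebf1, Srebf2 and Stard4.

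Both branches start from acetyl-CoA in the cytosol. The sterol branch builds mevalonate, isoprenoid units and squalene and folds squalene into sterols, while the fatty acid branch carboxylates acetyl-CoA and extends it to palmitate, which is then elongated and desaturated. The transcription factors encoded by Srebf1 and Srebf2 are held in the endoplasmic reticulum by Insig proteins when sterols are plentiful and drive both sets of genes when they are not, Srebf2 mainly the sterol genes and Srebf1 mainly the fatty acid genes. Macrophages also take up cholesterol from dead cells, and the isoprenoids made by the mevalonate part modify the small GTPases that osteoclasts need, which is why inhibitors of farnesyl diphosphate synthase are used against bone resorption.

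The cells came from the periosteum, the cell layer that covers bone, of Prx1Cre;mTmG mice. In these mice the Prx1 promoter drives Cre in limb mesenchyme, and Cre switches a cell and its descendants from membrane tdTomato to membrane EGFP. Both groups carried the same alleles: 1 library was made from uninjured periosteum and 1 from periosteum at day 3 after a tibial fracture. Per the labels' protocols, cells grew out of explants in medium with 20% FBS and bFGF at 10 ng/mL at 33 °C until 80% confluence, all living cells were used and 20000 were loaded, while the series' design text speaks of culture without expansion. The age, sex and number of the mice are not given in the sources used here, so each library counts as 1 sample; differences between them could not be tested, and the intervals given cover counting error only.

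The uninjured library held 4573 barcodes and the day-3 library 16332, of which 4269 and 12573 were kept, with medians of 19397 and 7449 UMIs (unique molecular identifiers, 1 per captured transcript). Clusters were made without the 28 genes and grouped into 3 classes by their markers. EGFP lineage cells, with fibroblast, tendon, bone or cartilage markers, numbered 2116 uninjured and 3052 at day 3, macrophage-like cells, rich in C1q genes, 1142 and 4024, and osteoclast-like cells 79 and 1083. Another 912 and 2245 cells lay in 6 clusters left unnamed, which were 21.4% and 17.9% of the kept cells. Levels are CPM, that is UMIs of a gene per 1000000 UMIs of the class; since each transcript gives 1 UMI at its 3′ end, levels of different genes were compared without a length correction. A ratio is the day-3 level divided by the uninjured level.

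The classes carried the markers their names require. EGFP was at 2564 and 1851 CPM in the lineage cells of the uninjured and day-3 libraries, against 102 and 48.7 CPM in macrophage-like and 76.4 and 34.6 CPM in osteoclast-like cells, although the source names in the labels call all cells Prx1-derived. The tdTomato feature reached at most 3.76 CPM in any class and gave no check of the unswitched cells. All 10 macrophage markers were at 10 CPM or more in macrophage-like cells of both libraries, and 9 of 10 osteoclast markers in osteoclast-like cells. Free RNA can be gauged from genes of other classes: EGFP, Prrx1 and Col1a2 lay in macrophage-like cells at 2.63% to 3.97% of their lineage level, and C1qa, C1qb and C1qc in lineage cells at 0.418% to 1.52% of their macrophage level.

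The libraries differed in more than the fracture. Cells with a UMI of Xist, the RNA of the silenced X chromosome in females, made up 0.236% of uninjured and 80.2% of day-3 lineage cells. The libraries shared only 3 barcode sequences although the labels name 1 kit. The median mitochondrial share in lineage cells was 2.56% and 4.41%. Fracture, sex of the cells and library preparation cannot be told apart in the ratios between libraries. Over all genes that reached 10 CPM in both or either library, the median ratio was 1.14 in lineage cells (8146 genes), 1.59 in macrophage-like cells (8300 genes) and 1.44 in osteoclast-like cells (7907 genes). Those medians, 0.19, 0.67 and 0.53 on the log2 scale, are the level against which the ratios below have to be read.

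The sterol branch was lower at day 3 in EGFP lineage cells and higher in macrophage-like cells, while the fatty acid branch was higher at day 3 in all 3 classes. In lineage cells the summed sterol genes lay at 531 CPM uninjured and 333 CPM at day 3, a ratio of 0.626 (95% interval 0.616 to 0.636). In macrophage-like cells they lay at 458 and 759 CPM, a ratio of 1.66 (1.61 to 1.71), and in osteoclast-like cells at 282 and 322 CPM, a ratio of 1.14 (1.03 to 1.27). The fatty acid genes summed to 246 and 321 CPM in lineage cells (1.31, 1.28 to 1.33), to 99.4 and 211 CPM in macrophage-like cells (2.13, 2.00 to 2.27) and to 94.9 and 139 CPM in osteoclast-like cells (1.46, 1.23 to 1.76). Relative to the median of all genes, the sterol branch stood at 0.549 in lineage cells, 1.04 in macrophage-like cells and 0.791 in osteoclast-like cells, and the fatty acid branch at 1.15, 1.34 and 1.01. The sterol ratio of macrophage-like cells was therefore about that of the median gene, whereas that of lineage cells lay well under it. With TMM scaling, which equalises the bulk of genes, the osteoclast-like sterol ratio turned to a log2 value of -0.17.

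**Figure D1:**
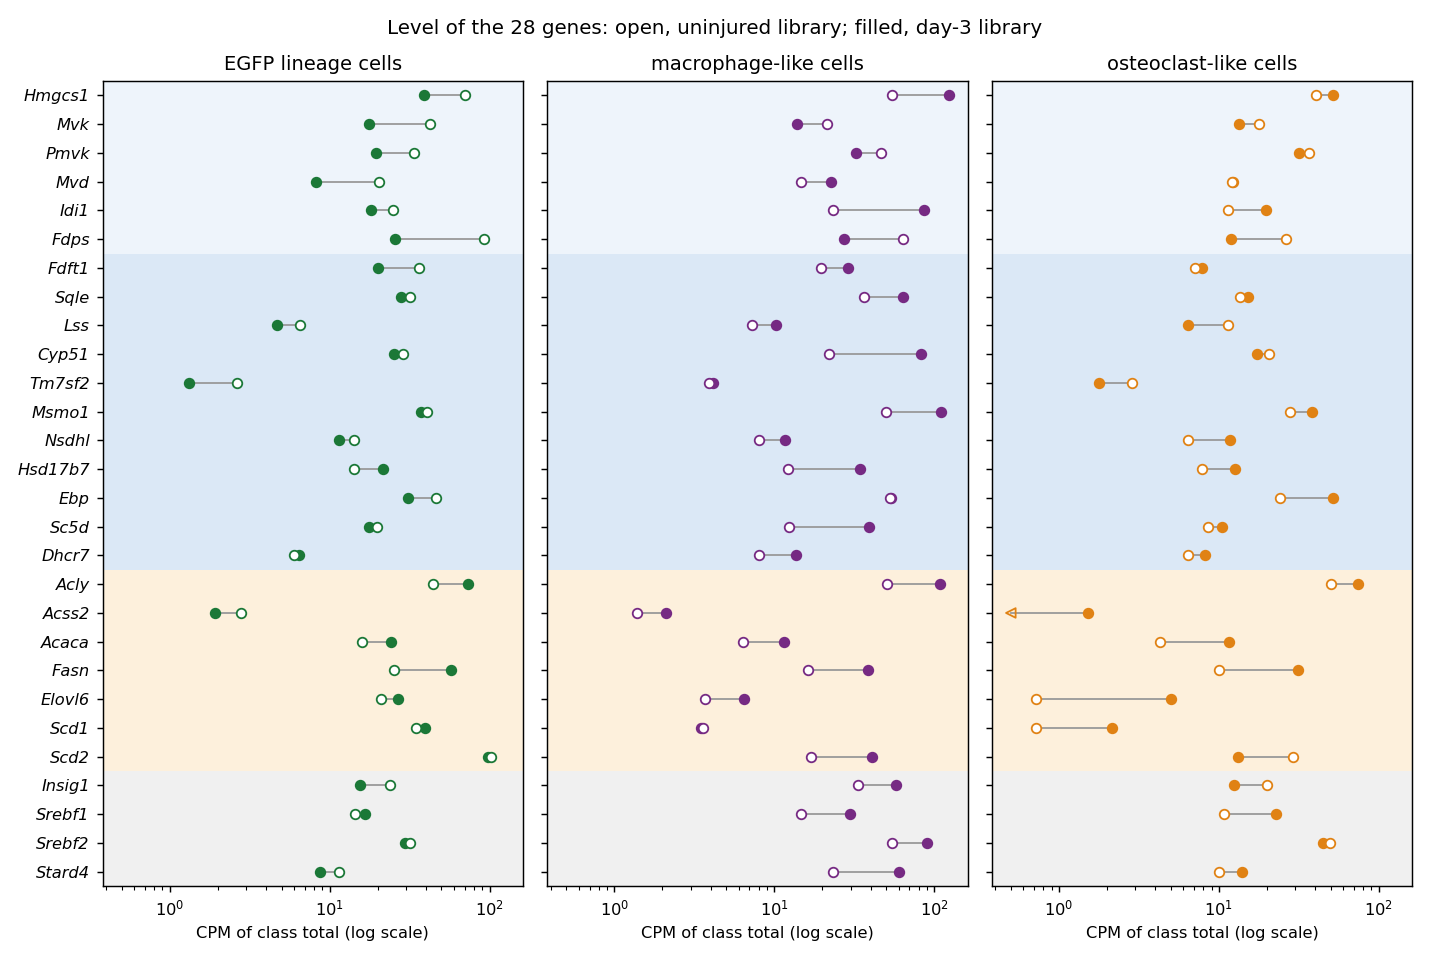
Level of each of the 28 genes in CPM (log axis) in EGFP lineage, macrophage-like and osteoclast-like cells, with open symbols for the uninjured library and filled symbols for day 3, and shaded bands for the branches. Each point is 1 library, so there are no error bars; Acss2 had 0 UMIs in uninjured osteoclast-like cells and is drawn as an open triangle at the axis floor. In lineage cells the mevalonate genes sit to the left at day 3, and in macrophage-like cells most sterol genes sit to the right.

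The balance between the branches within the same cells does not depend on library scaling. In lineage cells 2.16 sterol UMIs (2.12 to 2.21) were counted for each fatty acid UMI in the uninjured library and 1.03 (1.02 to 1.05) at day 3. The balance was 4.61 (4.33 to 4.91) and 3.59 (3.48 to 3.70) in macrophage-like cells, and 2.97 (2.43 to 3.64) and 2.32 (2.20 to 2.44) in osteoclast-like cells. It was thus lower at day 3 in each class, with intervals that did not overlap in lineage and macrophage-like cells and that just overlapped in osteoclast-like cells. In cluster 15, the osteoclast-like cluster found in both libraries, the balance was 3.01 and 2.75. Cluster 10, which held most osteoclast-like cells of day 3, had a balance of 2.10. Abundant genes lead these sums: Scd2 alone gave 41.3% and 30.5% of the fatty acid UMIs of lineage cells. The median member of each branch gave another picture of the same cells, at 29.0 CPM for the sterol and 25.2 CPM for the fatty acid genes in uninjured lineage cells and at 19.6 and 39.6 CPM at day 3, so by this measure the fatty acid genes stood above the sterol genes at day 3.

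**Figure D2:**
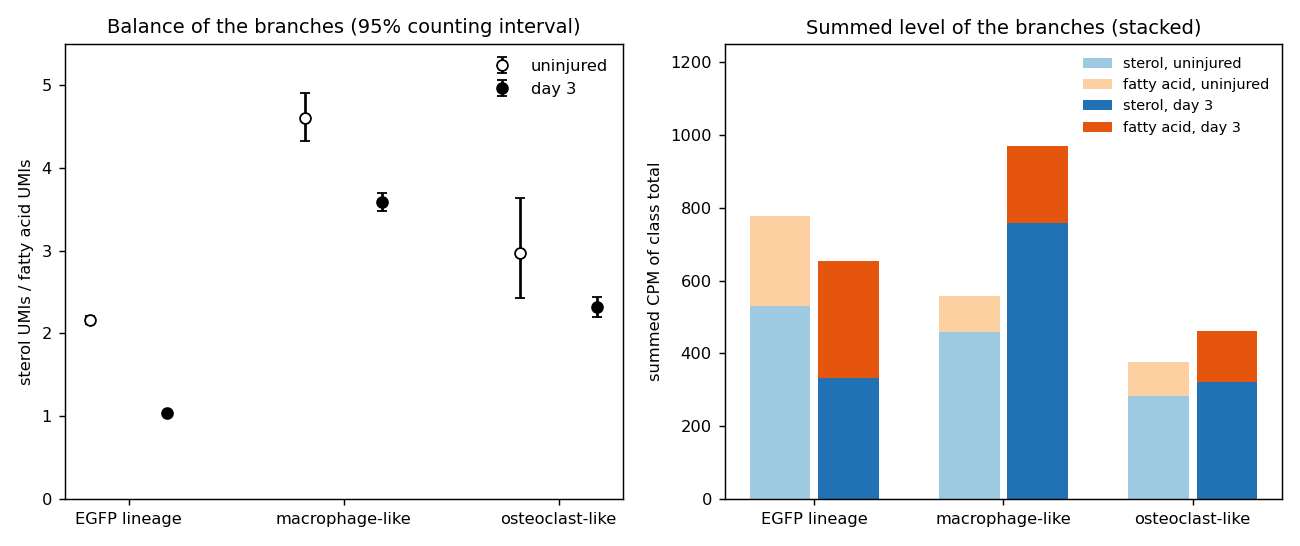
Left, sterol UMIs per fatty acid UMI in each class and library, with 95% binomial intervals for counting error; right, the summed CPM of each branch, stacked. The ratio is 2.16 uninjured and 1.03 at day 3 in EGFP lineage cells, and stays above 2 in macrophage-like and osteoclast-like cells.

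The mevalonate part carried most of the lower sterol level of lineage cells. It summed to 284 CPM uninjured and 128 CPM at day 3, a ratio of 0.451, while the genes from squalene to cholesterol summed to 247 and 204 CPM, a ratio of 0.826. In this class 24 of the 28 genes reached 10 CPM in 1 library at least, all but Lss, Tm7sf2, Dhcr7 and Acss2. Of the 14 sterol genes among them, 7 were at least 1.5-fold lower at day 3 (Hmgcs1, Mvk, Pmvk, Mvd, Fdps, Fdft1 and Ebp) and 1 at least 1.5-fold higher (Hsd17b7), where 15.7% of all tested genes were lower and 32.6% higher by that rule. Of 6 fatty acid genes 3 were higher (Acly, Acaca and Fasn) and 0 lower. Mvk, Mvd and Fdps were the 3 genes at least 2-fold lower, where 6.36% of all tested genes were.

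The regulatory sequence of 4 genes is shown because these genes went different ways between the libraries: Mvk was lower at day 3 in all 3 classes, Hmgcs1 and Idi1 were lower in lineage cells and higher in macrophage-like cells, and Fasn was higher in all 3. The 200 bases before each start site are given from RefSeq on GRCm38.p6, in the direction of the gene. Capitals mark CCAAT, the letters bound by NF-Y, in either direction (ATTGG on the other strand), and CACNCCAC, the core letters of the sterol regulatory element. The windows are chr5:114444069-114444268 on the plus strand for Mvk, chr13:119690151-119690350 on the plus strand for Hmgcs1, chr13:8885406-8885605 on the plus strand for Idi1 and chr11:120824548-120824747 on the minus strand for Fasn.
Mvk: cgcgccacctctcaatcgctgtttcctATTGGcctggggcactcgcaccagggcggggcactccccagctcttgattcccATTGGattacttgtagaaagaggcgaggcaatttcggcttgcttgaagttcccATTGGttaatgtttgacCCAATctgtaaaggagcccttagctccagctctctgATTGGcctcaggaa
Hmgcs1: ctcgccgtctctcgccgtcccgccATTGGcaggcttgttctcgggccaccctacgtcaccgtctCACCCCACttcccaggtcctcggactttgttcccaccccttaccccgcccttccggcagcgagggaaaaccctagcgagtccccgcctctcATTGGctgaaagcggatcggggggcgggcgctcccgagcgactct
Idi1: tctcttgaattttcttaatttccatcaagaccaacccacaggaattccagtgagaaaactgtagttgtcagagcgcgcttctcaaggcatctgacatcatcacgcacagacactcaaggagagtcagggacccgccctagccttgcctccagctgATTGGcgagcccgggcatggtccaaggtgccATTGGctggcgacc
Fasn: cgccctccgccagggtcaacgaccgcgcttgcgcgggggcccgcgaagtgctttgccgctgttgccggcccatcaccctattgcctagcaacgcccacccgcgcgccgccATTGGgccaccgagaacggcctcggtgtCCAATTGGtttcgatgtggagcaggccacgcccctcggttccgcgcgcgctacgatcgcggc

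Mvk held 5 CCAAT boxes in these bases, Fasn 3, of which 2 overlap as CCAATTGG, and Hmgcs1 and Idi1 held 2 each. Hmgcs1 also held 1 core of the sterol regulatory element. In the whole table, which spans 250 bases before to 50 after each start, 22 of the 28 genes had an entry, and Fdps, Fdft1, Sqle, Stard4, Scd1 and Scd2 had none. CCAAT on either strand occurred in 20 of the 22 genes (90.9%), among them 14 of 14 sterol genes and 3 of 5 fatty acid genes, against 41.1% of the 27025 genes of the table. The genes without it were Acaca and Elovl6, and the Acaca entry starts at base 84195188 of chromosome 11, inside the annotated gene (84129672 to 84401651), so it may not be the main promoter. Only 19 of the 22 genes had an entry that runs into an annotated transcript. The core CACNCCAC occurred in 2 (Hmgcs1 and Insig1; 9.09% against 7.12%), the E-box CACGTG in 4 (Hsd17b7, Sc5d, Dhcr7 and Insig1; 18.2% against 8.09%) and the full sterol regulatory element in 0 against 0.270%. A match is a run of letters and not a measured binding site, and a missing match says only that the letters are not in this window.

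Hmgcs1, which encodes the synthase that makes HMG-CoA, was at 70.0 CPM uninjured and 38.8 CPM at day 3 in lineage cells, a ratio of 0.554 (0.530 to 0.579). In macrophage-like cells it was at 54.6 and 123 CPM, a ratio of 2.26 (2.08 to 2.46), and in osteoclast-like cells at 40.7 and 51.7 CPM (1.27, 0.971 to 1.69). Hmgcs1 was thus lower at day 3 in lineage cells and higher in macrophage-like cells, also relative to the median gene of each class. Mvk, the mevalonate kinase gene, was at 42.1 and 17.6 CPM in lineage cells (0.417, 0.392 to 0.443), at 21.3 and 13.9 CPM in macrophage-like cells (0.655, 0.557 to 0.772) and at 17.8 and 13.3 CPM in osteoclast-like cells (0.744, 0.490 to 1.18). Pmvk, which encodes the next kinase, had ratios of 0.584, 0.694 and 0.869, from 33.6, 46.7 and 36.4 CPM in the uninjured library. Both kinase genes were lower at day 3 in each class, although the osteoclast-like intervals included 1.

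Mvd, the decarboxylase gene, was at 20.5 and 8.19 CPM in lineage cells (0.401, 0.367 to 0.438) but at 14.6 and 22.8 CPM in macrophage-like cells (1.56, 1.31 to 1.85). In osteoclast-like cells it was at 12.1 and 12.2 CPM, from 17 UMIs in the uninjured library. Idi1, the isomerase of the isoprenoid unit, showed one of the widest gaps between classes: it was at 24.8 and 18.2 CPM in lineage cells (0.733, 0.685 to 0.786) and at 23.4 and 86.1 CPM in macrophage-like cells (3.68, 3.25 to 4.18). The osteoclast-like level was 11.4 and 19.8 CPM (1.73, 1.05 to 3.06).

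Fdps, the farnesyl diphosphate synthase gene, was lower at day 3 in each class and was the most abundant mevalonate gene of uninjured lineage cells. It was at 92.7 and 25.7 CPM in lineage cells (0.277, 0.264 to 0.290), at 63.7 and 27.3 CPM in macrophage-like cells (0.429, 0.387 to 0.475) and at 26.4 and 11.9 CPM in osteoclast-like cells (0.450, 0.315 to 0.659). Of the genes that act before it in the same chain, Fdps in macrophage-like cells thus went against Hmgcs1, Mvd and Idi1. It went the same way as Mvk and Pmvk. The annotation (GENCODE vM21, GRCm38) places Fdps at chromosome 3, 89093588 to 89101959, minus strand, where its exons overlap those of the gene model Gm43738 on the same strand; Gm43738 held at most 1 UMI in any class and library, and the sources used here do not say how reads matching both were counted. Of 27 genes with a UMI in every class and library, Mvk, Pmvk and Fdps were the 3 lower at day 3 in each class, and Hsd17b7, Dhcr7, Acly, Acaca, Fasn, Elovl6 and Srebf1 the 7 higher in each. Relative to the median of all genes, 7 were lower in each class (Mvk, Pmvk, Mvd, Fdps, Fdft1, Lss and Tm7sf2) and 6 higher (Hsd17b7, Acly, Acaca, Fasn, Elovl6 and Srebf1). The share of all genes that went the same way in each class was not counted, so these counts have no background beside them. Some of the genes lay close to the median, as Srebf1 in lineage (1.01), Acly in osteoclast-like (1.03) and Mvd in macrophage-like cells (0.977).

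**Figure D3:**
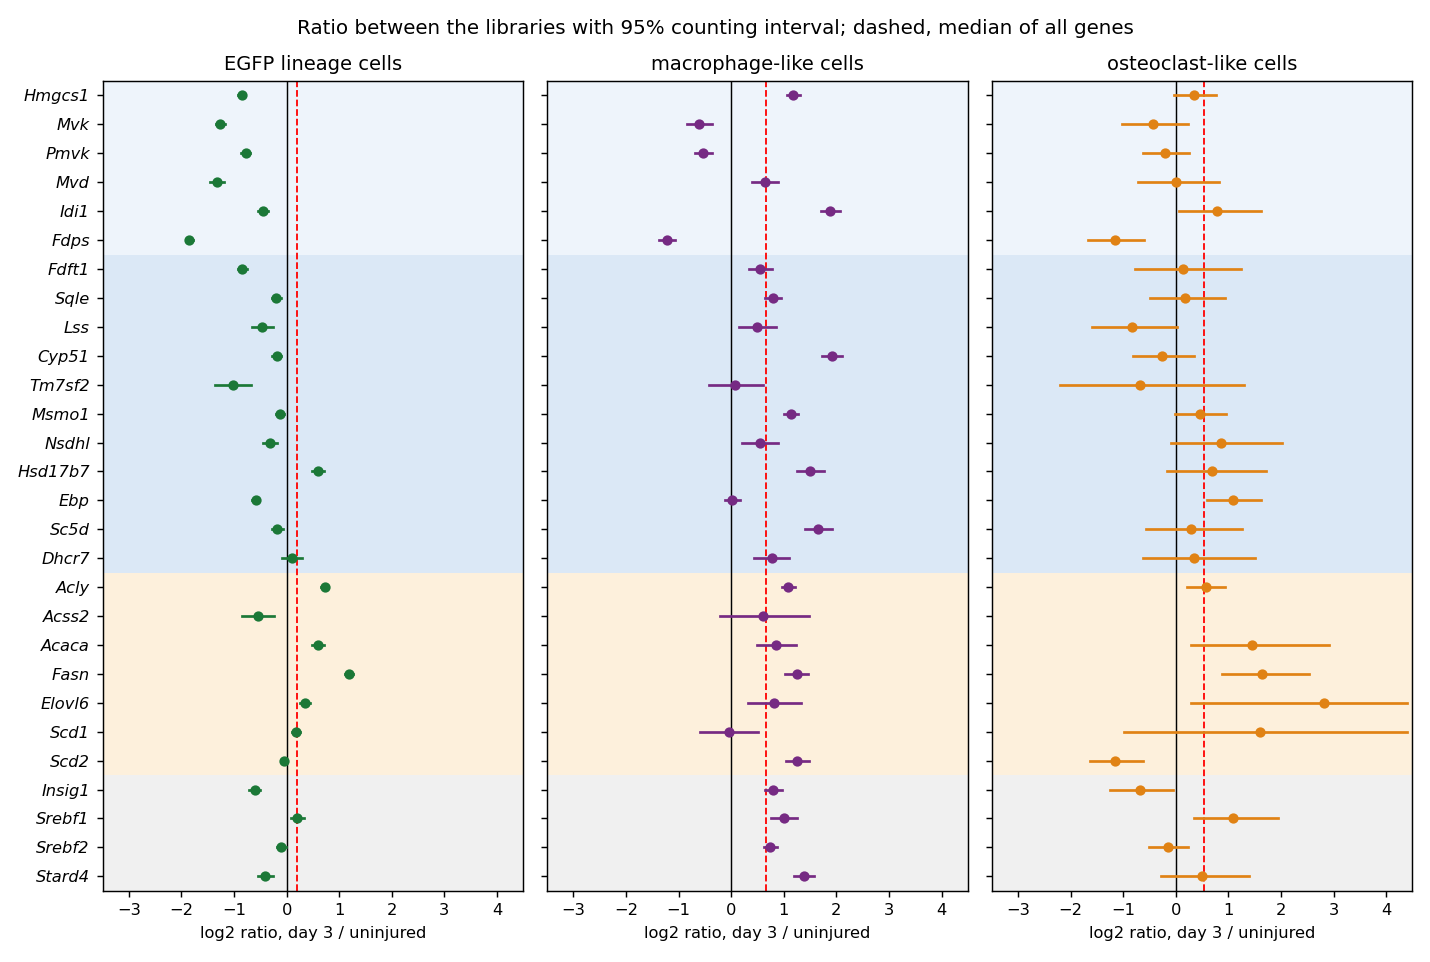
Day-3 level divided by uninjured level of each gene (log axis) in the 3 classes, with 95% intervals for counting error, which are clipped at the edge of the axis for genes with 1 UMI. The dashed red line is the median ratio of all genes, 1.14, 1.59 and 1.44; in lineage cells nearly all sterol genes lie to its left and Fasn, Acly and Acaca to its right, and in macrophage-like cells Cyp51, Idi1 and Sc5d lie farthest to the right and Fdps farthest to the left.

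Among the genes from squalene to cholesterol, Fdft1, the squalene synthase gene that commits carbon to sterols, had the lowest lineage ratio of those at 10 CPM or more, 0.559 (0.526 to 0.594), from 36.0 and 20.1 CPM. In macrophage-like cells it was at 19.7 and 29.0 CPM (1.47, 1.27 to 1.71). Its exons overlap those of Ctsb on the opposite strand, a gene at 2180 and 3627 CPM in macrophage-like cells, and the sources used here do not say whether the counting used strand. Sqle, the squalene epoxidase gene, was at 31.9 and 27.8 CPM in lineage cells (0.871, 0.821 to 0.923) and at 36.6 and 63.5 CPM in macrophage-like cells (1.73, 1.56 to 1.93).

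Cyp51, the demethylase of lanosterol, was at 29.0 and 25.4 CPM in lineage cells (0.876, 0.824 to 0.932) and at 22.001 and 82.96 CPM in macrophage-like cells, where its ratio of 3.77 (3.32 to 4.30) was the highest among the 28 genes in that class. Cyp51 and Akap9 overlap on opposite strands, but Akap9 lay at 24.8 and 31.7 CPM in macrophage-like cells. Msmo1, the next demethylating oxidase, was at 50.3 and 110 CPM there (2.20, 2.01 to 2.40) and at 40.8 and 37.3 CPM in lineage cells (0.916). Sc5d, the sterol desaturase gene, was at 12.3 and 38.9 CPM in macrophage-like cells (3.15, 2.65 to 3.77) and at 19.8 and 17.5 CPM in lineage cells (0.884). In macrophage-like cells Sqle, Cyp51, Msmo1 and Sc5d were thus 1.73 to 3.77 times as high at day 3, and in lineage cells their ratios were 0.871 to 0.916.

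Hsd17b7, a ketosteroid reductase gene, was the sterol gene with a lineage ratio above that of the median gene, at 14.1 and 21.4 CPM (1.52, 1.40 to 1.65); in macrophage-like cells it was at 12.2 and 34.6 CPM (2.84, 2.39 to 3.40). Ebp, the sterol isomerase gene, was at 46.5 and 30.9 CPM in lineage cells (0.664, 0.631 to 0.699), at 53.2 and 54.0 CPM in macrophage-like cells (1.02, 0.924 to 1.12) and at 24.3 and 51.5 CPM in osteoclast-like cells (2.12, 1.51 to 3.08). It is X-linked, and in cells called male alone its ratios were 0.690, 1.07 and 1.81. With osteoclast-like cells picked by UMI gates, its log2 ratio was 0.10. Nsdhl, also X-linked, had ratios of 0.807, 1.46 and 1.82, and 0.845, 1.17 and 1.19 in male cells. The low genes Lss, Tm7sf2 and Dhcr7 had lineage ratios of 0.725, 0.494 and 1.08 at no more than 6.50 CPM.

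The fatty acid genes split into those that make palmitate and those that modify it. Fasn, the fatty acid synthase gene, was at 25.2 and 57.5 CPM in lineage cells (2.28, 2.15 to 2.41), at 16.4 and 38.7 CPM in macrophage-like cells (2.37, 2.03 to 2.77) and at 9.99 and 31.3 CPM in osteoclast-like cells (3.13, 1.85 to 5.76). It was the 1 gene of the 28 at least 2-fold higher at day 3 in lineage cells, where 17.4% of all tested genes passed that fold. Acly, which splits citrate into acetyl-CoA, was at 44.3 and 73.5 CPM (1.66, 1.58 to 1.73), 51.0 and 108 CPM (2.13, 1.95 to 2.32), and 49.96 and 74.0 CPM (1.48, 1.16 to 1.91) in the 3 classes in the same order. Acaca, the carboxylase that makes malonyl-CoA, had ratios of 1.51, 1.81 and 2.71, the last from 6 UMIs in the uninjured library. Acly, Acaca and Fasn were higher at day 3 in every class, and their lineage ratios stood 1.45, 1.33 and 2.00 times above the median of all genes.

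The desaturase genes showed another pattern. Scd1 and Scd2 are close paralogs, and how reads matching both were assigned is unknown here. Scd2 was the most abundant of the 28 genes in lineage cells of both libraries, at 101 and 98.2 CPM (0.967, 0.937 to 0.999), and Scd1 was at 34.9 and 39.6 CPM (1.13, 1.07 to 1.20). Without these desaturases the fatty acid branch of lineage cells was at 109 and 184 CPM, a ratio of 1.68. In macrophage-like cells Scd2 was at 17.0 and 40.6 CPM (2.39, 2.06 to 2.78), whereas in osteoclast-like cells it was at 29.3 and 13.2 CPM (0.452, 0.322 to 0.648). Scd2 was therefore lower at day 3 in osteoclast-like cells while Fasn, Acly and Acaca were higher; without Scd2 the osteoclast-like fatty acid ratio was 1.91.

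Among the classes compared, Scd1 and Elovl6, the elongase of palmitate, were mainly lineage genes. Outside them this did not hold for Elovl6. In cluster 20 of day 3, named myeloid precursor-like, Elovl6 was at 19.1 CPM and Scd1 at 1.02 CPM. Scd1 was at 3.60 and 3.48 CPM in macrophage-like cells, 10.3% and 8.80% of the lineage level, and from 1 and 34 UMIs in osteoclast-like cells. At 3000 UMIs per cell it was seen in 11.7% and 11.1% of lineage cells and in 0.642% and 0.861% of macrophage-like cells, whose median depths before thinning were 24633 and 32992 against 10268.5 and 5398.5 UMIs. The macrophage level lay above the 2.63% to 3.97% at which EGFP, Prrx1 and Col1a2 were found there, and how much of it came from free RNA was not tested. Elovl6 was at 20.8 and 26.6 CPM in lineage cells (1.28, 1.19 to 1.37), at 3.68 and 6.46 CPM in macrophage-like cells and, from 1 and 79 UMIs, at 0.714 and 5.02 CPM in osteoclast-like cells. Acss2, which makes acetyl-CoA from acetate, was the lowest of the fatty acid genes, at 2.81 and 1.93 CPM in lineage cells; it had 0 UMIs in uninjured osteoclast-like cells, which allows up to 2.14 CPM, and 1.52 CPM at day 3.

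In macrophage-like cells 24 of the 28 genes reached 10 CPM, all but Tm7sf2, Acss2, Elovl6 and Scd1. At least 1.5-fold higher at day 3 were 17 of them, that is 9 of 16 sterol genes, 4 of 4 fatty acid genes and 4 of 4 regulators, where 54% of all tested genes were higher. At least 1.5-fold lower were 2, Mvk and Fdps, where 10.8% of all genes were lower. At least 2-fold higher were 11 (34% of all genes) and 1, Fdps, was 2-fold lower (4.1%). Divided by the median ratio of all genes, 5 of the 24 stayed at least 1.5-fold higher and 4 lower, and Cyp51 and Idi1 stood at 2.37 and 2.31. The share of all genes past the fold after this division was not counted. The count of 17 thus holds many genes close to the median gene, and Cyp51, Idi1, Sc5d, Hsd17b7 and Stard4 were the 5 farthest above it.

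In osteoclast-like cells 22 genes reached 10 CPM, and Fdft1, Tm7sf2, Dhcr7, Acss2, Elovl6 and Scd1 did not. Of 14 sterol genes 4 were at least 1.5-fold higher and 2 lower (Fdps and Lss), where 47.2% and 8.14% of all tested genes were; of 4 fatty acid genes 2 were higher and 1, Scd2, lower. At the 2-fold limit 4 genes were higher (Ebp, Acaca, Fasn and Srebf1; 25.8% of all genes) and 2 lower (Fdps and Scd2; 3.07%). The uninjured class held only 395 sterol and 133 fatty acid UMIs, so single genes there have wide intervals. Between the libraries the summed markers of other cell types in this class were 7.14 and 349 CPM for neutrophils (6 and 0 of 9 at 0), 8.56 and 47.5 CPM for monocytes (3 and 0 of 6 at 0) and 24.3 and 72.2 CPM for dendritic cells (4 and 3 of 8 at 0). They were 208 and 51.8 CPM for mesenchymal and 121 and 25.03 CPM for contractile markers. Their part in the osteoclast-like ratios was not tested. The uninjured class also lay almost wholly in 1 cluster, number 15, with 75 of its 79 cells, while 711 of the 1083 cells of day 3 lay in cluster 10, which had more dividing cells (59.2% against 5.52% in cluster 15 of the same library). Ctsk, Acp5 and Mmp9 summed to 31.6% of their class level in cluster 10 and 209% in cluster 15. Cluster 22, of osteoclast type with 160 uninjured cells (62.0% dividing), was left unnamed for its C1q genes. It had 280 CPM of sterol and 108 CPM of fatty acid genes, and ratios with it added were not calculated. Within cluster 15 alone the sterol branch was at 282 and 307 CPM (1.09, 0.978 to 1.22) and the fatty acid branch at 93.7 and 112 CPM (1.19, 0.987 to 1.45), so neither branch differed beyond counting error there. Scd2 (29.3 and 9.30 CPM, ratio 0.318) and Fdps (27.1 and 10.5 CPM, 0.388) were lower and Acly (49.0 and 77.0 CPM, 1.57) and Ebp (22.7 and 45.9 CPM, 2.02) higher in that cluster as well, while Fasn was at 9.51 and 13.0 CPM (1.36, 0.755 to 2.66).

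Insig1, Srebf2 and Stard4 were higher at day 3 in macrophage-like cells and lower in lineage cells. Divided by the median ratio of all genes, they stood at 1.09, 1.05 and 1.64 in macrophage-like cells and at 0.576, 0.817 and 0.662 in lineage cells. The macrophage-like ratios of Insig1 and Srebf2 were thus close to that of the median gene. Insig1, which retains the SREBP proteins, was at 23.7 and 15.6 CPM in lineage cells (0.657, 0.612 to 0.707), at 33.2 and 57.8 CPM in macrophage-like cells (1.74, 1.56 to 1.95) and at 20.0 and 12.5 CPM in osteoclast-like cells (0.623, 0.418 to 0.962). Srebf2 was at 31.995 and 29.8 CPM (0.932, 0.880 to 0.988), 54.2 and 90.7 CPM (1.67, 1.53 to 1.83), and 49.2 and 44.6 CPM (0.906, 0.706 to 1.18). Stard4, which carries cholesterol between membranes, was at 11.5 and 8.69 CPM in lineage cells (0.755, 0.682 to 0.835) and at 23.2 and 60.7 CPM in macrophage-like cells (2.61, 2.30 to 2.97). Srebf1 was higher at day 3 in each class, with ratios of 1.15, 2.00 and 2.12, as Fasn, Acly and Acaca were. Divided by the median ratio of all genes, Srebf1 stood at 1.01, 1.26 and 1.47, so in lineage cells it was at the level of the median gene. Srebf2 in lineage cells turned to a log2 ratio of 0.04 when each cell had equal weight.

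Within a library, where preparation is shared, the classes were compared branch by branch. In the uninjured library the sterol level of macrophage-like cells was 0.862 times (0.837 to 0.887) that of lineage cells, and the fatty acid level 0.405 times (0.381 to 0.429). At day 3 the sterol level was 2.28 times (2.24 to 2.32) and the fatty acid level 0.657 times (0.639 to 0.677) that of the lineage. At day 3 9 of 16 sterol genes were at least 2-fold higher in macrophage-like than in lineage cells (Hmgcs1, Mvd, Idi1, Sqle, Lss, Cyp51, Msmo1, Sc5d and Dhcr7), where 28% of all tested genes were, and 0 were lower (16% of all). In the uninjured library 0 of 14 were 2-fold apart in either direction, where 17.4% of all genes were higher and 17.9% lower. Of 6 fatty acid genes 4, namely Acaca, Elovl6, Scd1 and Scd2, lay 2-fold or more under the lineage level in macrophage-like cells of both libraries.

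Among the 3 classes, osteoclast-like cells had the lowest sterol level of the uninjured library, 0.531 times (0.479 to 0.586) that of lineage cells and 0.616 times (0.555 to 0.682) that of macrophage-like cells. At day 3 their sterol level was close to the lineage, at 0.967 times (0.939 to 0.996), and 0.424 times (0.411 to 0.437) that of macrophage-like cells. In the uninjured library 7 of 15 sterol and 5 of 6 fatty acid genes were at least 2-fold lower in osteoclast-like than in lineage cells and 0 higher (25% and 16.6% of all genes), and 5 of 14 sterol genes were lower than in macrophage-like cells and 0 higher (16.2% and 8.86%). At day 3 2 of 14 sterol genes, Fdps and Fdft1, and 4 of 6 fatty acid genes were 2-fold lower than in lineage cells and 0 higher (16.2% and 18.8%). The order of the sterol sums was thus lineage, macrophage-like, osteoclast-like in the uninjured library and macrophage-like, lineage, osteoclast-like at day 3, the last pair being 1.03-fold apart. At day 3 9 of 16 sterol genes were at least 2-fold lower in osteoclast-like than in macrophage-like cells, where 15% of all tested genes were and 6.36% were higher, and Stard4 was 4.32-fold and Insig1 4.65-fold lower. Acly was at 49.96 CPM in osteoclast-like against 44.3 CPM in lineage cells of the uninjured library (1.13, 0.876 to 1.43) and at 74.0 against 73.5 CPM at day 3 (1.01, 0.947 to 1.07), apart by no more than counting error.

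The clusters that make up a class differ between the libraries, so the sums compare different clusters. Uninjured lineage cells lay in cluster 7 (led by Cnn1, Dlk1 and Acta2), 13 (Cxcl12 and Islr), 16 (Ptn, Comp and Thbs4) and 21 (the bone genes Ibsp and Bglap2), with sterol sums of 515, 591, 593 and 425 CPM. Those of day 3 lay in cluster 5 (Gzme and Sfrp4), 6 (the dividing-cell genes Anln and Hmmr) and 9 (Nppc, Mmp3 and Il33), with sterol sums of 333, 331 and 333 CPM, and in a shallow cartilage-gene cluster, 23, of 163 cells with a median of 1170 UMIs and 541 CPM. Every uninjured lineage cluster lay above clusters 5, 6 and 9 in its sterol sum, and Fdps was at 68.0 to 113 CPM in the former and 24.3 to 26.5 CPM in the latter. The fatty acid sums overlapped, at 197 to 333 CPM in the uninjured and 300 to 377 CPM in those day-3 clusters, whereas Fasn did not, at 12.5 to 30.4 CPM against 52.2 to 65.4 CPM. The order of the sterol sums holds for named clusters only. Unnamed cluster 17 of day 3 (mesenchymal type, EGFP at 1133 CPM) had a sterol sum of 447 CPM, above that of uninjured cluster 21. Unnamed uninjured cells had 384 CPM in cluster 11 (tendon type, EGFP at 758 CPM) and 222 CPM in cluster 19 (contractile type, EGFP at 2344 CPM). Over the class, the summed level of the 10 mesenchymal markers was 5259 and 2523 CPM and that of the 7 contractile markers 2072 and 753 CPM. The summed level of the 6 tendon markers was 245 and 14.6 CPM, that of the 7 bone markers 78.0 and 16.7 CPM that of the 10 macrophage markers 134 and 41.9 CPM and that of the 9 neutrophil markers 10.7 and 207 CPM, with 1 neutrophil marker at 0 in the uninjured library; their part in the lineage ratios was not tested.

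**Figure D4:**
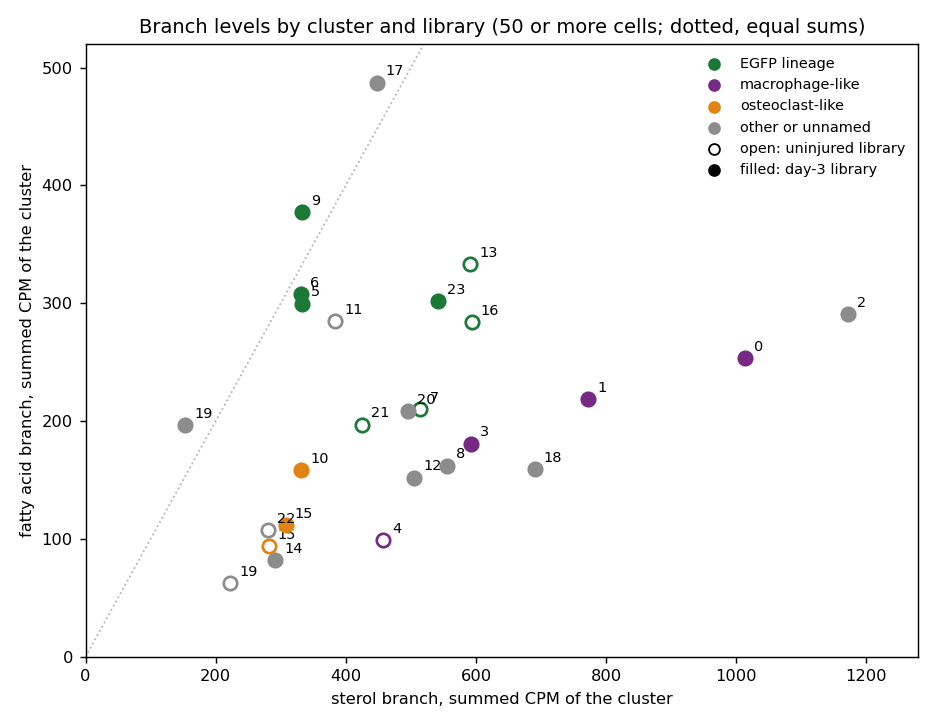
Summed sterol against summed fatty acid level in CPM (linear axes) for each cluster with at least 50 cells in a library, open symbols for the uninjured library and filled symbols for day 3, coloured by class; numbers name the clusters and the dotted line marks equal sums. The day-3 lineage clusters 5, 6 and 9 lie near the line at about the same sterol level, and the day-3 macrophage-type clusters 0, 1 and 2 have the highest sterol levels.

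Macrophage-like cells of day 3 were uneven. Cluster 0, led by Rsad2, Arg1 and Cxcl10, had a sterol sum of 1013 CPM, cluster 1, led by Mrc1, Ednrb and F13a1, of 772 CPM, and cluster 3, led by genes of dividing cells, of 592 CPM. The uninjured cluster 4, led by C1qb and Wfdc17, had 457 CPM. Hmgcs1 in these clusters was at 179, 129, 84.7 and 54.0 CPM, and Scd2 at 71.2, 36.6, 24.0 and 16.9 CPM, in the same order, while Fdps was at 28.3, 29.6, 25.2 and 63.9 CPM. The order of the sterol sums was also the order of depth, the median UMIs per cell being 4503, 5085, 7773.5 and 10287.5 from the highest sterol sum to the lowest. An unnamed macrophage-type cluster, number 2, with a median of 1888 UMIs, had 1172 CPM. The part of depth in this order was not tested. Between the libraries, the summed osteoclast markers of macrophage-like cells were at 53.9 and 273 CPM (2 and 5 of 10 markers at 10 CPM or more) and the neutrophil markers at 26.8 and 312 CPM (1 and 4 of 9), and their part in the macrophage ratios was not tested.

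Dividing cells were told from the rest by at least 3 UMIs of 15 mitotic genes after thinning each cell to 3000 UMIs. They made up 26.9% and 34.2% of lineage cells, 36.7% and 30.9% of macrophage-like cells, and 9.09% and 40.3% of osteoclast-like cells. In macrophage-like cells of day 3 the sterol sum was 562 CPM in dividing and 864 CPM in other cells, a ratio of 0.650 (0.630 to 0.671). In lineage cells it was 331 and 333 CPM at day 3 and 465 and 563 CPM in the uninjured library. In uninjured macrophage-like cells the sterol sum was 425 and 480 CPM (0.887, 0.840 to 0.936). Osteoclast-like cells of day 3 had 322 and 318 CPM (1.01, 0.956 to 1.07). At day 3 the sterol genes were thus lower in dividing macrophage-like cells and about equal in dividing and other lineage or osteoclast-like cells. The deeper macrophage-like cluster 3 was 84.2% dividing, against 2.13% and 5.26% in clusters 0 and 1. The part of cluster and depth in this contrast was not tested. Fasn in osteoclast-like cells of day 3 was at 41.4 CPM in dividing and 25.03 CPM in other cells (1.65, 1.38 to 1.98), and in lineage cells at 64.1 and 53.9 CPM (1.19, 1.13 to 1.25). With dividing cells left out, the log2 ratios between libraries were -0.76 for the sterol and 0.30 for the fatty acid branch in lineage cells, and 0.85 for the sterol branch in macrophage-like cells.

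Seen cell by cell at 3000 UMIs, the sterol branch gave a mean of 1.64 UMIs per uninjured and 0.978 per day-3 lineage cell, 1.34 and 2.45 per macrophage-like cell, and 0.753 and 0.980 per osteoclast-like cell. Cells with no sterol UMI made up 31.0% and 42.4% of lineage cells, 30.1% and 17.5% of macrophage-like cells, and 48.1% and 41.9% of osteoclast-like cells. Fdps was seen in 21.96% (20.2 to 23.8) of uninjured and 6.64% (5.75 to 7.62) of day-3 lineage cells, and Fasn in 6.91% (5.86 to 8.08) and 17.0% (15.6 to 18.4). Idi1 was seen in 6.70% (5.29 to 8.35) and 23.7% (22.3 to 25.1) of macrophage-like cells. Before thinning these shares were 71.2% and 50.3%, 43.5% and 74.8%, and 20.8% and 37.2%. The shares went the same way as the CPM. Cells shallower than 3000 UMIs were left out, 3 and 206 lineage, 52 and 538 macrophage-like and 2 and 54 osteoclast-like cells.

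Other genes of the pathway were counted by lists. Of the lists' genes at 10 CPM or more in lineage cells, 5 of 12 for sterol sensing and SREBP processing were 1.5-fold or more above their uninjured level at day 3 and 2 below it, 2 of 13 other sterol and isoprenoid enzymes were higher and 4 lower, 5 of 12 genes of cholesterol uptake, export and storage were higher and 1 lower, and 8 of 22 other fatty acid and glycerolipid genes were higher and 3 lower. Over all genes 32.6% were higher and 15.7% lower by this fold, so several of these counts lie near the share of all genes. Acat2, which makes acetoacetyl-CoA for Hmgcs1, was at 29.8 and 12.4 CPM (0.414, 0.385 to 0.445), beside the lower mevalonate genes. Soat1, the enzyme that esterifies cholesterol for storage, was at 28.7 and 108 CPM (3.76, 3.57 to 3.96), and Nceh1, which hydrolyses the esters, at 6.996 and 20.5 CPM (2.93). Insig2 (0.538) and the liver X receptor gene Nr1h2 (0.583) were lower, and Acsl4 (3.10), which activates polyunsaturated fatty acids, was higher.

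In macrophage-like cells 10 of 12 sensing genes, 7 of 13 other sterol enzymes, 8 of 15 uptake, export and storage genes and 13 of 22 other fatty acid genes were at least 1.5-fold higher at day 3, beside the 54% of all genes. Abca1, the cholesterol exporter, was at 17.8 and 129 CPM (7.24, 6.31 to 8.34) and Mylip, whose product degrades lipoprotein receptors, at 13.6 and 65.2 CPM (4.80, 4.09 to 5.66). Both are known targets of the liver X receptors, whose part was not tested. Both stood above every one of the 28 genes in ratio, but they are named here as the 2 highest ratios of their list. Acat2, in contrast, was at 15.05 and 8.14 CPM (0.541) and Ch25h, the cholesterol 25-hydroxylase gene, at 19.3 and 9.24 CPM (0.478). In osteoclast-like cells 6 of 12, 5 of 12, 6 of 14 and 10 of 20 genes of the same lists were higher, near the 47.2% of all genes, with Npc1, the lysosomal cholesterol transporter, at 41.4 and 108 CPM (2.60) and Fads1, a desaturase of polyunsaturated fatty acids, at 3.57 and 22.8 CPM (6.39, 2.71 to 19.8). Of 11 genes of fatty acid oxidation, 2 were higher in lineage, 4 in macrophage-like and 2 in osteoclast-like cells, beside 32.6%, 54% and 47.2% of all genes, and the carnitine acyltransferase gene Cpt1a was at 20.5 and 68.5 CPM in macrophage-like cells (3.34, 2.92 to 3.83).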

How the data were processed

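Single-cell RNA was measured in 2 libraries with a 10x 3′ kit, per the labels. The deposited files hold raw UMI counts per gene and barcode, per the file headers; the submitters' processing notes name Cell Ranger, Seurat 4.0.1 and mm10, with 3.1.0 as the software version in the header. Barcodes with under 500 genes or 1000 UMIs (69 and 1412) or over 10% mitochondrial UMIs (73 and 457) were removed. Scrublet's automatic threshold marked 0 and 0 cells, so the highest scores were removed at 0.8% per 1000 barcodes (162 and 1890 cells). Cells were clustered together in scanpy 1.11.5 (Python 3.11.15): 2000 variable genes less the 28 genes (7 were among them), 30 principal components, 15 neighbours, Leiden (leidenalg 0.10.2) at resolution 1, no integration.

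A cluster was named from 19 marker lists if at least 3 markers were detected in 10% of its cells and its leading genes did not go against the name. Among clusters of the 3 classes, those with defining genes of another class above 10% of their class level stayed unnamed. This limit, set after the clusters were seen, kept out 18.4% of uninjured and 0.0477% of day-3 cells. UMIs were summed by class. Ratios have exact conditional binomial and shares exact Clopper-Pearson 95% intervals (scipy 1.17.1); with 1 library per group there was no test. The 28 genes, the marker lists and the 5 lists of other pathway genes were chosen with earlier results of these data known. The text names all 28 genes and, of each other list, at most the 2 highest and 2 lowest ratios in a class. The calculations were checked on simulated data that held counting error only. In the osteoclast-like simulation 222 of 7133 unchanged genes passed 1.5-fold, and 46 of 50 genes set 2-fold lower did. In each of the other classes 0 unchanged genes passed. Alternatives were TMM scaling (edgeR 4.0.16 on R 4.3.3), equal weight per cell, clustering with the 28 genes, no doublet removal, no dividing cells, male cells only, gated classes, medians over genes, other minimum levels, centring and depth; 3 on which clusters enter a class were added after seeing the data. RefSeq promoters (GRCm38.p6) were searched for exact letters on both strands.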

Additional observations from a re-analysis of the deposited data

Results flagged for a closer look

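Between the libraries, some ratios lay on opposite sides of 1 in different classes by a wide margin. The ratios were not divided by the median ratio of all genes. On the log2 scale that median was 0.19 in lineage, 0.67 in macrophage-like and 0.53 in osteoclast-like cells. Differences between log2 ratios are given, each rests on 1 library per group, and none of the differences was tested. The sterol branch ratio of macrophage-like cells exceeded that of EGFP lineage cells by 1.41. For single genes this difference was 2.03 for Hmgcs1, 1.96 for Mvd and 1.41 for Insig1. Divided by the median ratio, the macrophage-like sterol branch stood at 1.04, Mvd at 0.977, Insig1 at 1.09 and Hmgcs1 at 1.42. In lineage cells these values were 0.549, 0.351, 0.576 and 0.486. The ratio of Ebp in osteoclast-like cells exceeded that of lineage cells by 1.68. Osteoclast-like minus macrophage-like ratios were -2.40 for Scd2 and -1.48 for Insig1.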

How the results depend on the processing

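Branch results are log2 ratios of day 3 over uninjured, and balances are log2 of sterol over fatty acid UMIs. Of 234 branch and count results under alternatives, 153 stayed within the limits set for them, 79 moved further and 2 turned in direction. The cause of these shifts was not tested. The sterol branch of lineage cells (-0.68 as reported) was -0.76 without dividing cells, -0.60 in male cells, -0.72 with gated classes, -0.63 with EGFP-rich unnamed clusters, -0.74 with TMM scaling and -0.46 as the median over genes. In macrophage-like cells (0.73) it was 0.69 with the 28 genes kept for clustering, 0.48 without doublet removal, 0.85 without dividing cells, 0.68 in male cells, 0.79 with unnamed macrophage-type clusters, 0.88 with equal weight per cell, 0.24 with TMM and 0.64 as the median. In osteoclast-like cells (0.19) it turned to -0.17 with TMM.

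The fatty acid branch of lineage cells (0.39) was 0.30 without dividing cells, 0.33 with gates, 0.46 with EGFP-rich clusters, 0.32 with TMM and 0.35 as the median. In macrophage-like cells (1.09) it was 0.97 without doublet removal, 0.91 with gates, 0.60 with TMM and 0.86 as the median. In osteoclast-like cells (0.55) it was 0.082 with gates, 0.25 in the shared cluster, 0.19 with TMM and 1.52 as the median.

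The balance of uninjured lineage cells (1.11) was 1.08 without dividing cells and 0.20 from median genes. That of day 3 (0.049) was 0.019 without dividing cells, 0.092 in male cells, 0.024 with EGFP-rich clusters and turned to -1.01 from median genes. In macrophage-like cells the uninjured balance (2.20) was 2.06 with gates and 1.74 from medians, and that of day 3 (1.84) was 1.71 without doublet removal, 1.91 with equal weight and 1.49 from medians. In day-3 osteoclast-like cells (1.21) it was 1.36 without doublet removal, 1.32 without dividing cells, 1.52 with gates, 1.46 in the shared cluster and 0.13 from medians. That of uninjured osteoclast-like cells (1.57) was 1.49 to 1.60 over the alternatives, so with gates the day-3 value lay within this range.

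In lineage cells the 4 genes 1.5-fold higher became 2 without dividing cells, with gates, with TMM or at 50 CPM, and 1 when centred on the median of all genes. The 8 lower became 2 at 50 CPM, the 1 gene 2-fold higher became 0 when centred, and the 3 2-fold lower became 1 at 50 CPM and 5 when centred. In macrophage-like cells the 17 became 10 with TMM, 9 at 50 CPM and 5 when centred, and the 2 lower became 1 without dividing cells, with gates or at 50 CPM and 4 when centred. The 11 2-fold higher became 6 without doublet removal or at 50 CPM, 4 with TMM and 2 when centred, and the 1 lower became 3 with TMM or when centred. In osteoclast-like cells the 7 became 4 with TMM, 1 at 50 CPM and 2 when centred, and the 4 lower became 2 without doublet removal, 0 at 50 CPM and 8 when centred. The 4 2-fold higher became 2 with gates or TMM, 7 with no minimum and 1 at 50 CPM or when centred, and the 2 lower became 1 with equal weight, 4 with TMM or when centred and 0 at 50 CPM.

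Of 663 results for single genes 4 were called turned, a call made only where the reported interval excluded a ratio of 1. They were Sc5d in lineage cells of male cells alone (0.014), Elovl6 in gated osteoclast-like cells (-0.18), Scd2 in lineage cells with EGFP-rich clusters (0.049) and Srebf2 in lineage cells with equal weight (0.040). Genes whose interval held 1 also changed direction in some alternatives. In osteoclast-like cells Mvd, Sqle and Fdft1 kept their direction in 2, 3 and 4 of 8 alternatives. In macrophage-like cells Tm7sf2 kept it in 3 of 8, and Ebp and Scd1 in 5 of 8. The shared cluster and both additions of unnamed clusters were chosen after seeing the data. No paired analysis was possible because each group is 1 library and the labels give no replicate numbers. The uninjured osteoclast-like class rests on 79 cells and 1401120 UMIs in all, which limits its precision.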

Other observations

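Other myeloid clusters of day 3 spanned a wide range in both branches. The sterol and fatty acid sums were 556 and 162 CPM in dendritic-like cells (led by the antigen presentation genes H2-Aa and Cd74), 505 and 152 CPM in monocyte-like cells (led by Ccr2), 496 and 209 CPM in myeloid precursor-like cells (led by the granule genes Ctsg and Mpo) and 292 and 82.1 CPM in neutrophil-like cells (led by Ngp and Camp). All 4 had more sterol than fatty acid UMIs. The name dendritic-like is uncertain: C1qa, C1qb and C1qc summed there to 63.8% of their macrophage-like level, against 63.6% and 61.2% in macrophage-like clusters 0 and 3. Of its 8 dendritic markers 4 were detected, and the limit on genes of another class was not applied to these 4 clusters. Fdps was at 62.3 CPM in the precursor-like and 37.3 CPM in the neutrophil-like cluster. Each cluster is from 1 library, and these values are descriptions.

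Among the unnamed clusters, number 17 (day 3, of mesenchymal type with EGFP at 1133 CPM, led by Ccl11, Cdh5 and Col4a1) had 447 CPM of sterol and 487 CPM of fatty acid genes. Its Scd2 was at 175 CPM and its Fasn at 79.8 CPM. Cluster 19, led by the contractile genes Acta1 and Tagln, had cells in both libraries: its sterol sum was 222 CPM uninjured and 153 CPM at day 3, its fatty acid sum 62.3 and 197 CPM, and Fdps 69.3 and 37.6 CPM.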
